A study of Homo sapiens with 9 samples.

Results

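The regions described here were the ARID1A, ARID1B and ARID2 peaks in HepG2 cells whose nearest gene, as the authors assigned it, was a gene for a small nuclear, nucleolar or cytoplasmic RNA. A peak was a member when that gene name began with RNU, RN7SK, 7SK, RN7SL, SNORD, SNORA or SCARNA, or was Y_RNA, U1 to U8 or snoU13, so the rule used names and no measured value. It took 748 of 34575 ARID peaks: 196 of 12852 ARID1A peaks (1.53%, 63 names), 309 of 8728 ARID1B peaks (3.54%, 55 names) and 243 of 12995 ARID2 peaks (1.87%, 70 names).

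HepG2 is an established human liver cancer line, and the cells here carried no treatment or edit. Chromatin was immunoprecipitated with an antibody to ARID1A, ARID1B, ARID2 or SNF5, which are parts of SWI/SNF, a complex that moves nucleosomes, in 2 replicates each, beside 1 input library. ARID1A and ARID1B are alternative subunits of the BAF form of the complex, ARID2 belongs to the PBAF form, and SNF5 (BAF47) is a core subunit found in both. Peaks were called after the replicates were merged, so no value below has a replicate error, and the ARID lists carry no peak height or read depth.

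Small nuclear RNAs are the RNA core of the spliceosome: U1, U2, U4, U5 and U6 act on most introns, while U11, U12, U4atac and U6atac act on a minor class, and U7 guides the trimming of histone mRNA ends. RNA polymerase II makes most of them, but polymerase III makes U6, U6atac, 7SK, 7SL and the Y RNAs. For the snRNA genes and 7SK, the SNAPc complex serves promoters of either kind, and a TATA box just before the start marks the polymerase III kind. 7SK RNA holds the elongation factor P-TEFb in an inactive particle, 7SL is the RNA of the signal recognition particle, Y RNAs bind the Ro60 protein, and SNORD, SNORA and SCARNA RNAs guide modification of other RNAs, mostly from within introns of host genes. The human genome also holds a large number of copies of these genes that are annotated as pseudogenes, many under a family name alone, so a name such as U6 or Y_RNA stands for many places.

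The windows below run from 250 bases before to 50 bases from the annotated start, read in the direction of transcription from GRCh37 (hg19), the build of the peak lists. They were chosen because they show a polymerase III type promoter at a gene with peaks of all 3 ARIDs (RN7SK) and a U1 gene whose window lay within peaks of wholly repeated sequence (RNU1-4). The last sequence is the small ARID1A peak that lay under the strongest SNF5 peak of the set, at RNU2-59P. Capitals mark TATAA on either strand, and no letters are marked in the last 2 sequences.
RN7SK (chr6:52860168-52860467, plus strand): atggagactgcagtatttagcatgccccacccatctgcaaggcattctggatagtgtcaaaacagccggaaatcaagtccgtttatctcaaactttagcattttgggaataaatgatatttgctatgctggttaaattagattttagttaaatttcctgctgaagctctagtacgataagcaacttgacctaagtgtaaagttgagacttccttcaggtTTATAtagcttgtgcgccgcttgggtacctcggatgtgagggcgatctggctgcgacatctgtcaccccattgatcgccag
RNU1-4 (chr1:17066761-17067060, plus strand): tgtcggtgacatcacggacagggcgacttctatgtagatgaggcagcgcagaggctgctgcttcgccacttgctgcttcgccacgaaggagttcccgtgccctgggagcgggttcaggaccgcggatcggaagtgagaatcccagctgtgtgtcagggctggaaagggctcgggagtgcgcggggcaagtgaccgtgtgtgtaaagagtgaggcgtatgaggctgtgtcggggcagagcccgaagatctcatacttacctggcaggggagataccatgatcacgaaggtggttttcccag
ARID1A peak at RNU2-59P (chr10:103124604-103124690, plus strand): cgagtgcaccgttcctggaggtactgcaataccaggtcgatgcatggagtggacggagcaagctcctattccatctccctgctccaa
The TATA letters lay 31 to 27 bases before the start of RN7SK. In the same window of 86 annotated copies behind promoter-class peaks of the set, TATAA on either strand lay 35 to 20 bases before the start in 5 (5.81%), beside 2021 of 64440 windows of all annotated genes (3.14%). The ZNF143 core ACTACAAT and the B box core GTTCGANTC (N stands for any base, either strand) were found in 0 of the 86 windows, and in 0.701% and 0.177% of all windows. These matches describe letters in the reference only.

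Small RNA peaks mostly lay far from the gene they were named for. In the promoter class of the authors' feature column were 55 of 196 ARID1A members (28.1%, 95% Wilson interval 22.2 to 34.7%), beside 72.6% of the whole ARID1A list. For ARID1B it was 41 of 309 (13.3%, 9.93 to 17.5%) beside 37.9%, and for ARID2 79 of 243 (32.5%, 26.9 to 38.6%) beside 67.0%. The median deposited distance, which is unsigned and was found to run from the peak's midpoint, was 4350.5 bp for ARID1A members, 6626 bp for ARID1B and 3540 bp for ARID2, beside 235, 2636 and 423 bp in the whole lists. Of the members outside promoters, most were intronic or distal: 131 intronic and 129 distal peaks for ARID1B, 49 and 89 for ARID1A, and 61 and 99 for ARID2. These intervals cover counting error only.

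**Figure D1:**
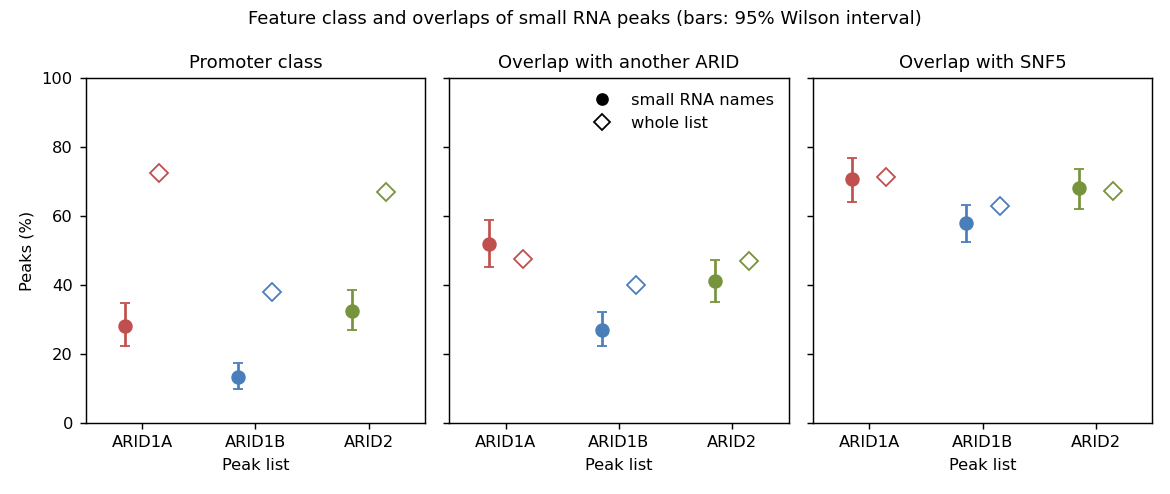
Share of peaks (%) in the promoter class, overlapping another ARID and overlapping SNF5 in each ARID list, for small RNA peaks (filled circles) and the whole list (open diamonds), with 95% Wilson intervals. The promoter share of small RNA peaks was 28.1, 13.3 and 32.5% for ARID1A, ARID1B and ARID2, below the whole list each time, while the SNF5 shares lay near those of the lists.

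Overlap with SNF5 was close to that of the lists. It was found at 139 ARID1A members (70.9%, 64.2 to 76.8%), 179 ARID1B members (57.9%, 52.4 to 63.3%) and 166 ARID2 members (68.3%, 62.2 to 73.8%), with an overlap of 1 bp or more counted, beside 71.3%, 62.9% and 67.2% of all peaks in the lists. Overlap with another ARID was found at 102 ARID1A members (52.0%, 45.1 to 58.9%) and 100 ARID2 members (41.2%, 35.1 to 47.4%), beside 47.6% and 46.9%. For ARID1B it was 83 members (26.9%, 22.2 to 32.1%) beside 40.1%. Outside promoters 22.4% of ARID1B members overlapped another ARID, beside 24.7% of all ARID1B peaks outside promoters, and within the promoter class the values were 56.1% and 65.5%. For ARID1A the same values were 46.8% and 41.6% outside promoters, and 65.5% and 49.9% within the promoter class. For ARID2 they were 37.8% and 33.8% outside promoters, and 48.1% and 53.3% within the promoter class. Peaks of all 3 ARIDs met at 41 ARID1A, 42 ARID1B and 40 ARID2 members (20.9, 13.6 and 16.5%), beside 13.7, 19.2 and 13% of the lists.

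Joined across lists where they lay within 1000 bp of each other, the members made 443 loci. Only members were joined, so an ARID peak beside them that was assigned to another gene was not counted. Members of 1 list alone made up 322 loci, of which 126 (39.1%) overlapped SNF5. Of 68 loci with members of 2 lists 59 (86.8%) overlapped SNF5, and so did each of the 53 with members of all 3. Every ARID peak of the 3 lists, whatever its gene, joined at the same distance gave 16388 loci. There the SNF5 shares were 39.2% with 1 ARID, 85.2% with 2 and 97.5% with 3. Loci of 1 list alone made up 72.7% of the small RNA loci and 56.6% of all loci. These sets are not like for like, since the small RNA loci leave out neighbouring peaks assigned to other genes. The 89 loci that held a member within 1000 bp of the named start were divided as 51, 20 and 18. These had members of 1, 2 and 3 lists, with SNF5 at 19, 19 and 18.

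By class, U6 held the most members (218), followed by U3, U8 and U13 (123), Y RNA (102) and U1 (78). U7 had 50 members, SNORA 47, SNORD 36, 7SK 35, U2 and U4 15 each, U5 11, the minor spliceosomal RNAs 8, SCARNA 6 and 7SL 4. ARID1B gave the most peaks for U6 (110, beside 49 for ARID1A and 59 for ARID2), Y RNA (54, 20 and 28), the U3, U8 and U13 class (57, 28 and 38) and 7SK (19, 7 and 9). It gave none for the minor spliceosomal or 7SL genes and the fewest for U1 (17, beside 29 and 32) and SNORD (6, beside 9 and 21). The 7SL count leaves out the family name Metazoa_SRP, which the naming rule did not take. Under that name ARID1B had 60 peaks, beside 43 for ARID1A and 37 for ARID2. The family names U6 (193 peaks), Y_RNA (102), snoU13 (82), U1 (38) and 7SK (31) together with pseudogene names took 130 of 196 ARID1A, 255 of 309 ARID1B and 164 of 243 ARID2 members. Among these, 13.1, 8.24 and 15.2% were in the promoter class, beside 57.6, 37.0 and 68.4% of the members with the name of a gene copy. The latter include every member of the SNORD, SNORA and SCARNA classes.

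**Figure D2:**
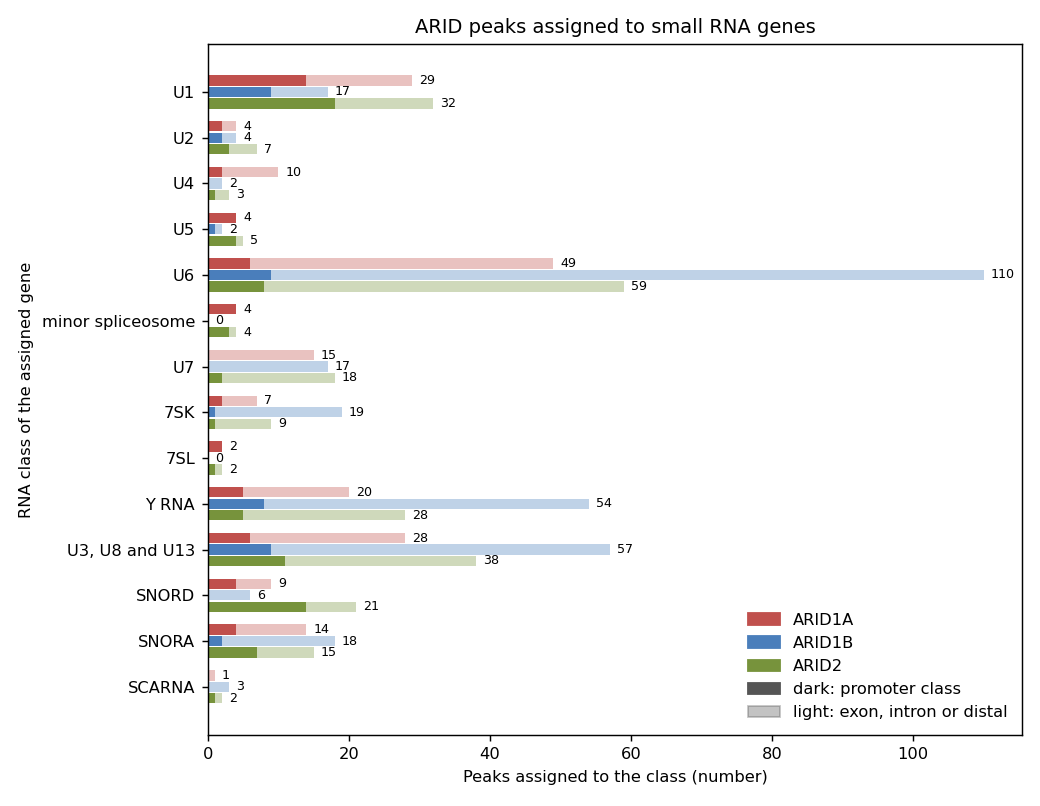
Number of peaks assigned to each RNA class in the ARID1A, ARID1B and ARID2 lists; dark bars are the promoter class, light bars exon, intron and distal peaks, and the number at each bar is its total. U6 had 110 ARID1B peaks, of which 9 were in the promoter class, whereas 14 of 29 ARID1A and 18 of 32 ARID2 peaks of U1 were.

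A count over annotated genes rather than peaks showed where the ARIDs sat. Copies of these RNAs in Gencode v44 (lifted to GRCh37) were asked whether any ARID peak, whatever gene it had been assigned to, touched the 1000 bp on either side of their start. Leaving out SNORD, SNORA and SCARNA, 36 of 56 copies with a gene name (64.3%, Wilson interval 51.2 to 75.5%) had one, and 84 of 4452 copies with a pseudogene or family name (1.89%) did. The 56 hold no U2 copy, as all 70 U2 copies bore pseudogene or family names, and 5 of those had a peak. They do hold 3 copies with other RNU names, none with a peak. All 20162 annotated protein-coding starts, expressed or not, stood at 39.3% for any ARID and at 32.7, 10.9 and 28.4% for ARID1A, ARID1B and ARID2. The paper reports very little ARID binding at transcripts not expressed in these cells, so these are not the shares of expressed genes. All 5 U6 genes (RNU6-1, RNU6-2, RNU6-7, RNU6-8 and RNU6-9) had an ARID peak, beside 14 of 1327 other U6 copies (1.06%). So did all 5 U5 genes, both U4 genes, RNU4ATAC and RNU6ATAC, RNU7-1, RN7SK, both 7SL genes of this annotation (RN7SL2 and RN7SL3), and all 6 genes of U3, U8 and U13. Of 25 U1 genes, which include the variant RNVU1 genes, 9 had a peak (36.0%), as did 3 of 4 RNY genes.

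Many of these starts lie near another gene's start. Where no start of another kind of gene lay within 1000 bp, 22 of 37 gene-named copies outside SNORD, SNORA and SCARNA had an ARID peak (59.5%), and 50 of 4111 other copies did (1.22%). SNORD, SNORA and SCARNA copies gave another picture. An ARID peak lay at 53 of 830 (6.39%), but at 5 of the 549 copies with no other gene's start within 1000 bp (0.911%). All 830 were counted as gene-named, though some names, such as SNORA70, stand for several places. Their share is therefore not like for like with that of the other gene-named copies. Outside those 3 classes, peaks of all 3 ARIDs were found at 14 of 56 gene-named copies, each with an SNF5 peak. They were found at 1598 of 20162 protein-coding starts (7.93%), and 1562 of those 1598 had an SNF5 peak. Of the 14 copies, 6 were U1, 4 were U3, 3 were U6 and 1 was 7SK. Much of the U1 and U3 sequence is repeated in the genome, so which of those copies the reads came from cannot be told. By list, no ARID1B peak was called at the U4, minor spliceosomal, 7SL and RNY genes, where ARID1A reached 2, 2, 2 and 2 copies and ARID2 1, 2, 1 and 3. The numbers of copies are small, and the difference between lists was not tested.

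**Figure D3:**
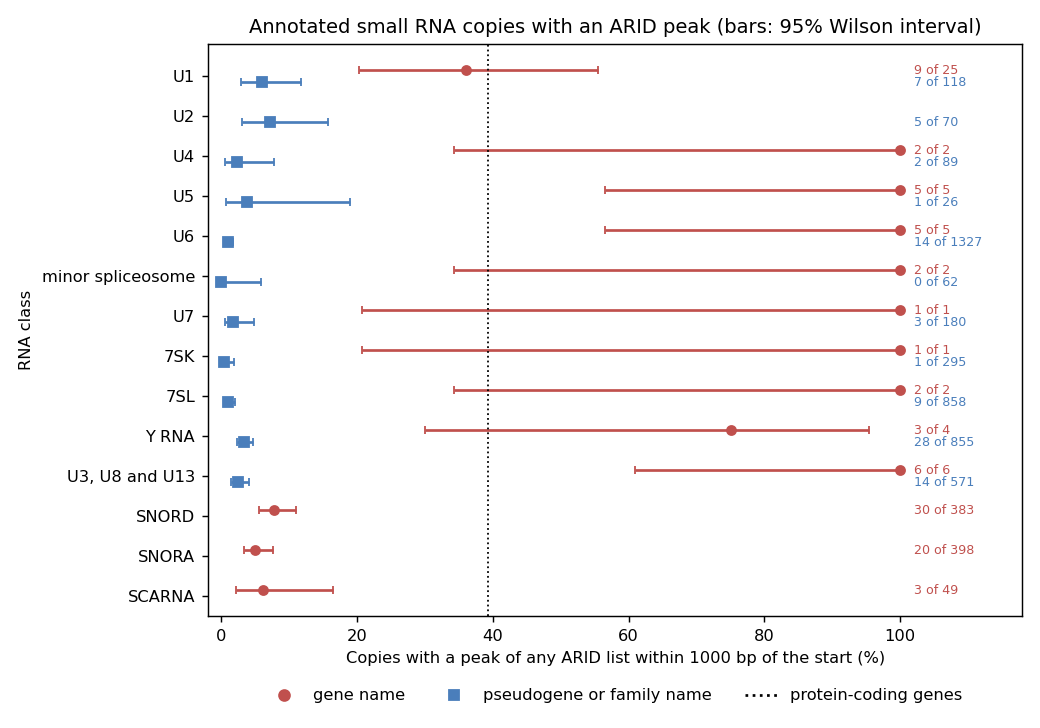
Share (%) of annotated copies in each RNA class with a peak of any ARID list within 1000 bp of the start. Circles are copies with a gene name, which include all SNORD, SNORA and SCARNA copies, and squares are those with a pseudogene or family name. Bars are 95% Wilson intervals, and the counts stand at the right. The dotted line is the share of all annotated protein-coding genes, expressed or not (39.3%). Circles for U4, U5, U6, U7, 7SK, 7SL, the minor spliceosomal RNAs and the U3 class stand at 100%, and the squares reach 7.14% at most, at U2.

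At RNU6-1, the reference U6 gene (chr15:68132277-68132383, minus strand), the ARID1A peak was 520 bp wide and ran from -502 to 17 bp of the start. The ARID2 peak was 208 bp wide, from -228 to -21 bp, and the ARID1B peak 166 bp wide, from -191 to -26 bp. The SNF5 peak there had a score of 64, beside a median of 19 over 20718 SNF5 peaks. The nearest start of another gene (SKOR1-AS1) lay 1274 to 1408 bp from the peaks' midpoints.

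RNU6-7 and RNU6-8, named RNU6-40 and RNU6-41 in the peak lists, lie beside each other on chromosome 14 and share 1 SNF5 peak of 4201 bp with a score of 31. Peaks over them were wider for ARID1A (1002 and 901 bp) than for ARID1B (173 and 361 bp), and ARID2 had several (191 and 553 bp at RNU6-7, 198 to 434 bp at RNU6-8). The ARID1B peak at RNU6-7 ended at -523 bp, whereas that at RNU6-8 ran across the start, from -183 to 177 bp. ARID1A also covered both starts, and ARID2 reached just past them, to 38 and 17 bp. The start of another annotated gene lay 70 to 586 bp from the midpoints at RNU6-7 and 988 to 2302 bp from those at RNU6-8.

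RN7SK (chr6:52860418-52860748, plus strand) carried peaks of all 3 ARIDs. The wider of 2 ARID1A peaks (758 bp) ran from -435 to 322 bp, and the other (59 bp) from 569 to 627 bp. The ARID1B peak (273 bp) lay over the RNA from 56 to 328 bp, and the ARID2 peak (628 bp) ran from 297 to 924 bp, past the RNA's end and across the smaller ARID1A peak. Their SNF5 peak, 1963 bp wide, had a score of 21. The start of GSTA4, a glutathione transferase gene, was 259 bp from the midpoint of the wider ARID1A peak, so the peaks cannot be given to 1 of these 2 genes. All 31 peaks under the family name 7SK lay 2590 bp or more from their copy.

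U1 copies carried the widest peaks of the set. Of 78 U1 members 67 overlapped SNF5 (85.9%), 56 another ARID and 31 both other ARIDs. At RNU1-2, RNU1-3 and RNU1-4 on chromosome 1 the peaks over the start were 763, 843 and 896 bp wide, then 646, 1388 and 895 bp, then 887, 1267 and 1126 bp, for ARID1A, ARID1B and ARID2 in turn. The SNF5 scores there were 57, 43 and 59. The widest lay at a pair of copies on chromosome 14 that the current annotation calls pseudogenes, RNU1-27P and RNU1-28P (RNU1-7 and RNU1-8 in the lists). ARID1A, ARID1B and ARID2 peaks there were 1660, 1806 and 1190 bp and 1690, 1578 and 2108 bp wide, beside a median of 218, 164 and 189 bp in the lists, and the SNF5 scores were 54 and 53. Another annotated start lay 308 to 572 bp from the midpoints of these peaks, and 279 to 430 bp from those over the start of RNU1-4.

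Other U1 members were small. At RNVU1-7 (RNU1-9 in the lists) the 3 ARID peaks were 68, 85 and 54 bp wide and lay within the 164 bp RNA, and the SNF5 peak (346 bp) had a score of 59. At RNVU1-9 (RNU1-6) they were 116, 113 and 196 bp wide under an SNF5 peak of 349 bp and score 67. Of 159 promoter-class members with a matched copy, 47 covered the start, 40 ended before it and 72 began after it. Those inside the annotated RNA from end to end numbered 14, of which 5 were at U1, 4 at U2 and 5 in the U3, U8 and U13 class.

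**Figure D4:**
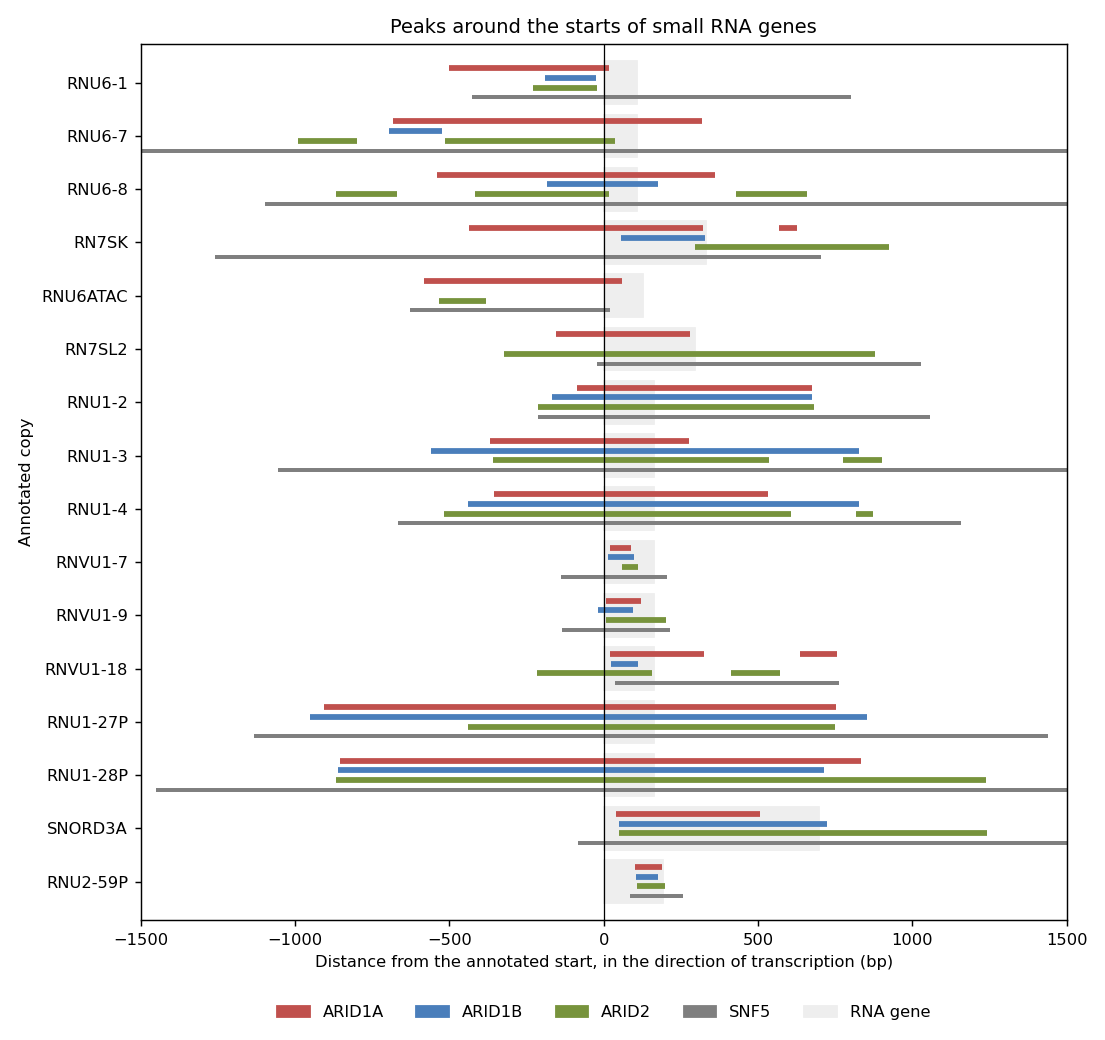
Promoter-class peaks of ARID1A, ARID1B and ARID2 and their SNF5 peaks around the annotated start of 16 small RNA copies, in bp along the direction of transcription; grey boxes are the RNA genes, and lines are cut at 1500 bp. At RNU6-1 the ARID peaks lie mostly before the start, at RNU1-27P and RNU1-28P they span it for over 1000 bp, and at RNVU1-7 and RNU2-59P they lie over the RNA itself.

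The strongest SNF5 peak under any member, with a score of 124, lay at a U2 pseudogene, RNU2-59P (chr10:103124602-103124792, minus strand). It was 173 bp wide, and the ARID1A, ARID1B and ARID2 peaks over it were 87, 71 and 89 bp wide, from 102 to 188, 106 to 176 and 109 to 197 bp of the start. The RNA is 191 bp long, so the ARID2 peak ran past its end. Another U2 pseudogene, RNU2-6P, named here after its values were seen, had ARID1A and ARID2 peaks of 114 and 109 bp from 1 and 2 bp of its start, with an SNF5 peak of 129 bp and score 34. RUBCNL starts 760 to 762 bp from their midpoints. The highest SNF5 score anywhere was 134. The 239 SNF5 peaks touched by members had a median score of 22 and width of 884 bp, beside 22 and 836.5 bp for the 10538 SNF5 peaks touched by any ARID peak. For the 53 touched by promoter-class members these were 24 and 1228 bp.

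Much of the sequence at U1 and U3 genes occurs elsewhere in the genome. Reads were 50 bases long, so each peak was cut into its 50-mers and those found more than once in GRCh37, on either strand, were counted. How reads with several equal matches were placed is not given in the sources used here. At least 50% of the 50-mers were repeated in 29 of 41 promoter-class U1 peaks (70.7%) and 15 of 26 of the U3, U8 and U13 class (57.7%), but in 0 of 23 at U6, 0 of 9 at U5 and 0 of 7 at the minor spliceosomal RNAs. All promoter-class peaks at RNU1-3, RNU1-4, RNU1-27P, RNVU1-7 and RNVU1-9 were 100% repeated, and those at RNU6-1 0%. RNU2-59P was at 0% and RNU2-6P at 5.0 and 6.15%, so their small peaks lay in sequence with few or no exact copies. Which U1 or U3 copy the reads came from cannot be told from these lists.

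Over all members, the share of repeated peaks was highest for ARID1B. At least 50% of 50-mers were repeated in 88 of 309 ARID1B members (28.5%), 24 of 196 ARID1A (12.2%) and 29 of 243 ARID2 members (11.9%), beside 16.5, 3.85 and 3.58% of the whole lists. Without these peaks SNF5 overlap was 67.0% for ARID1B, 68.0% for ARID1A and 66.8% for ARID2. Overlap with another ARID was then 28.1, 48.3 and 37.4%, and the promoter class held 11.3, 22.1 and 29.0%, for ARID1B, ARID1A and ARID2 in turn. The whole lists were not filtered in this way, so these shares cannot be set against the list shares given above.

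**Figure D5:**
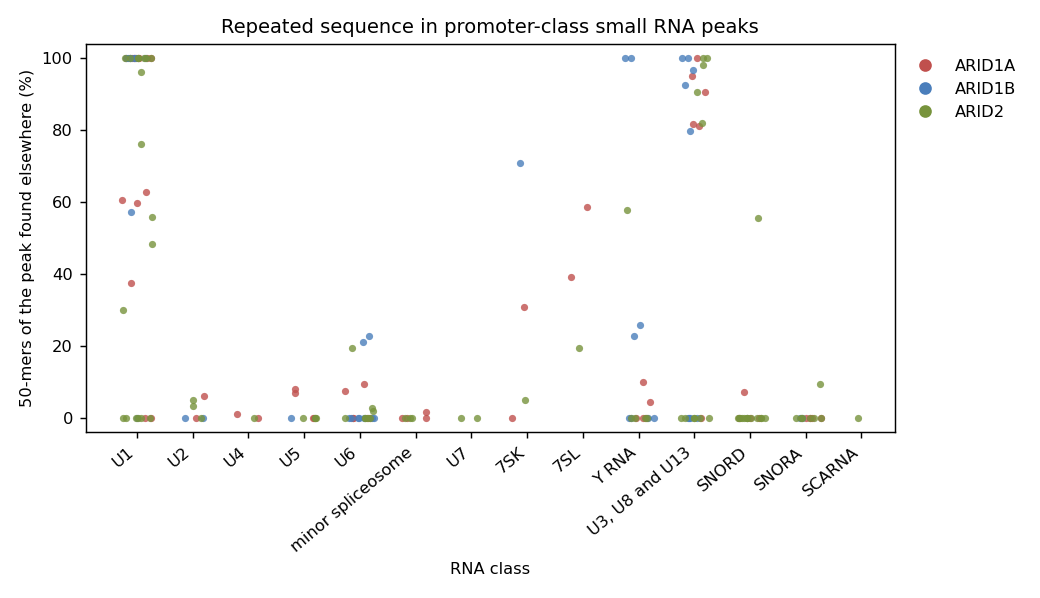
Percentage of each promoter-class peak's 50-mers that occur elsewhere in GRCh37, by RNA class; each point is 1 peak, coloured by ARID list and spread sideways for view. U1, the U3, U8 and U13 class and Y RNA reach 100%, while U4, U5, U6 and the minor spliceosomal RNAs reach at most 22.8%, at U6.

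The U3 genes SNORD3A, SNORD3B-1, SNORD3B-2 and SNORD3C on chromosome 17, which encode the RNA for the first cuts of the ribosomal RNA precursor, each had peaks of all 3 ARIDs with SNF5 scores of 30 and 39. Their peaks were at least 79.7% repeated. SNORD118, the U8 gene, had an ARID1B peak across its start from -188 to 32 bp and an ARID2 peak from -1 to 85 bp in unrepeated sequence, and no ARID1A peak.

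The minor spliceosomal genes had peaks of ARID1A and ARID2 alone. RNU11 had 2 ARID1A (167 and 69 bp) and 2 ARID2 peaks (278 and 83 bp) under an SNF5 peak of score 24. RNU6ATAC had an ARID1A peak of 644 bp from -583 to 60 bp and an ARID2 peak of 154 bp from -535 to -382 bp, with SNF5 score 31. RNU4ATAC had an ARID1A peak of 108 bp at 346 to 453 bp, where CLASP1 starts 535 bp from its midpoint, and an intronic ARID2 peak of 171 bp at 961 to 1131 bp. Of 11 U5 members 2 overlapped another ARID (18.2%, Wilson interval 5.14 to 47.7%), beside 47.6, 40.1 and 46.9% of the ARID1A, ARID1B and ARID2 lists. RNU5A-1 had a 75 bp ARID1A peak from -36 to 38 bp with no SNF5 peak, RNU5B-1 a 149 bp ARID1A peak across its start and a 198 bp ARID2 peak upstream, RNU5D-1 ARID2 alone and RNU5F-1 ARID1B alone. RNU4-1 had ARID2 across its start (-185 to 4 bp) and ARID1A at 539 to 694 bp.

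RN7SL2 had ARID1A from -153 to 279 bp and ARID2 from -323 to 878 bp, and RN7SL1 a 666 bp ARID1A peak, with SNF5 scores of 17 and 21. Another gene's start lay 78 and 293 bp from the RN7SL2 midpoints, and RPS29, a ribosomal protein gene, starts 155 bp from that at RN7SL1. A further 140 peaks bore Metazoa_SRP, the family name for 7SL copies, which lay outside the naming rule. The ARID1A, ARID1B and ARID2 lists held 43, 60 and 37 of them. Of the 140, 7 were in the promoter class and 81 overlapped SNF5, at a median distance of 6921 bp.

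Of 102 Y_RNA members 18 were in the promoter class. Of 5 Y_RNA loci with members of all 3 lists, 1 lay within 1000 bp of the start, at a copy on chromosome 17 (chr17:28671521-28671622, minus strand). Its peaks were 244, 269 and 156 bp wide for ARID1A, ARID1B and ARID2, with an SNF5 score of 22. SNORD and SNORA members in the promoter class, which guide methylation and pseudouridylation, had another gene's start within 1000 bp of the midpoint at 14 of 18 SNORD and 8 of 13 SNORA peaks, beside 7 of 23 at U6 and 15 of 41 at U1. Whether that gene was the host was not tested. Promoter-class peaks of SNORD12, SNORD12B and SNORD12C, an example chosen after its values were seen, lay 182 to 908 bp from the start of ZFAS1, under 1 SNF5 peak of 6672 bp.

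Genes for the proteins that make or bind these RNAs carried promoter-class peaks as well. Of 9 genes for SNAPc and promoter factors, 5, 1 and 6 had one in the ARID1A, ARID1B and ARID2 lists. GTF2B had one in all 3 lists, and TBP, POU2F1 and ZNF143 in those of ARID1A and ARID2 only. Of 22 genes for polymerase III and its factors, 15, 3 and 13 did, and POLR3C and POLR3E, both polymerase subunits, had one in all 3 lists. Of 7 genes of the 7SK particle the counts were 5, 1 and 7, with CCNT2, a cyclin of P-TEFb, in all 3. Of all annotated protein-coding names, expressed or not, 28.6, 9.93 and 24.7% had a promoter-class peak in the respective list. For the 6 protein genes of the signal recognition particle the counts were 3, 1 and 2, for the 10 of the snoRNP core 8, 4 and 4, and for TROVE2 and SSB, the Ro60 and La genes, 1, 1 and 1. The 11 other polymerase III RNA genes gave 6, 2 and 8, with RPPH1, the RNase P RNA, and VTRNA1-2, a vault RNA, in all 3 lists. The 14 snoRNA host genes gave 7, 2 and 5, with SNHG16 in all 3. The protein-coding shares above do not cover these RNA genes and host genes, and no share over comparable genes is given here.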

How the data were processed

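Values came from 3 tables of ARID peaks and 1 BED list of SNF5 peaks (hg19) that the authors deposited. Per the study's methods, the authors aligned single-end reads with Bowtie2, removed duplicates, merged the 2 replicates, called broad peaks with MACS2, joined close peaks, removed blacklisted regions and took nearest genes from Gencode V16. The positions and distances are in bp, and the SNF5 column is the peak score the authors deposited. The deposited chromatin states matched in 38.3 to 51.4% of overlapping peak pairs and were not used. The distance, taken from the midpoint, met an annotated start within 5 bp in 75.4 to 79.1% of peaks.

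Overlaps of at least 1 bp were counted in Python 3.11.15 (tested on simulated data against bedtools 2.31.1), with Wilson intervals from scipy 1.17.1. Of 748 members, 720 matched a Gencode v44 copy of their class within 10 bp. Genes were named if all 3 lists held a peak and 1 lay within 1000 bp, if they led their class, if they were numbered functional genes, or for the top SNF5 score. Starts of other genes were taken from the same annotation. The members and lists were chosen with earlier results of these data known. Input reads were not analysed here, and no test between lists was made. Some promoter sequences and motif matches are not reported here.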

Additional observations from a re-analysis of the deposited data

How the results depend on the processing

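No paired analysis was possible because the peaks were called on merged replicates. Of 61 alternative values for shares and totals, 29 stayed within the Wilson interval of the reported share or within 1.5 times the count, and 32 did not. In the order ARID1A, ARID1B and ARID2, a reciprocal overlap of at least 50% gave SNF5 shares of 7.65, 6.15 and 7.82% and shares with another ARID of 22.4, 10.7 and 18.9%. A gap of up to 1000 bp gave 86.7, 70.2 and 83.5% and 76.5, 38.8 and 64.6%. Without pseudogene and family names the SNF5 shares were 77.3, 72.2 and 81.0%, those with another ARID 62.1, 53.7 and 49.4%, and the promoter shares 57.6, 37.0 and 68.4%. Within 5000 bp of the assigned gene 102, 127 and 131 peaks remained, with promoter shares of 53.9, 32.3 and 60.3%. A distance of at most 500 bp gave promoter shares of 21.9, 9.39 and 21.8%. Without members of at least 50% repeated 50-mers, an alternative chosen after seeing the data, the SNF5 share of ARID1B was 67.0% and the promoter share of ARID1A 22.1%. Counting neighbours as 1 region moved no share. Of 126 alternative counts by class, 83 were within 1.5 times the reported count. A window of 500 bp left 72 of 89 gene-named copies with an ARID peak. Outside SNORD, SNORA and SCARNA all 36 remained, and within those classes 36 of 53 did. The lists give no read depth, so a missing peak shows only that none was called.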
